A study of Mus musculus with 8 samples.

Results

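Zscan4b, Zscan4c, Zscan4d, Zscan4e, Zscan4f, Tcstv1, Tcstv3, Zfp352 and Tdpoz4 are genes that the mouse embryo transcribes at the 2-cell stage and that cultured pluripotent stem cells transcribe in a small, changing share of cells, the two-cell-like cells. The set was chosen by gene name, not by a threshold on measured values. Of its 9 genes, 7 had an entry among the 22878 gene entries of the expression tables, and Tcstv1 and Tcstv3 were not analysed here. The 5 Zscan4 genes passed the filter of at least 1 FPKM in at least 1 library and were tested together with all 13693 entries that passed it. Zscan4b and Zscan4e passed it through the R1 libraries only, so a difference from R1 was built into their entry. Zfp352 and Tdpoz4 stayed below it in every library.

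Transcription was measured by paired-end sequencing of polyadenylated RNA in 8 libraries from 5 mouse cell lines. R1 is a normal embryonic stem cell (ESC) line, with 2 libraries. The other 4 are secondary induced pluripotent stem cell (iPSC) lines, made from somatic cells of 8-week-old mice that had themselves been grown entirely from iPSCs carrying doxycycline-inducible Oct4, Sox2, c-Myc and Klf4. Line 16-6 came from hematopoietic cells (mesoderm, 2 libraries), line 32 from adipocyte progenitors (mesoderm, 2 libraries), line S8 from epidermal cells (ectoderm, 1 library) and line T2 from stomach lining cells (endoderm, 1 library). All iPSC lines therefore share the 4 transgenes that R1 lacks, and each tissue of origin is represented by a single line, so that origin and line cannot be told apart. The cells were kept with leukemia inhibitory factor on mitomycin-treated mouse embryonic fibroblast feeders, while the sample labels name the tissue as embryo. The study asked how closely iPSCs of different germ-layer origin resemble ESCs and each other.

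Zscan4 proteins carry a SCAN domain and 4 zinc fingers, and they are known for lengthening telomeres by recombination and for protecting genome stability when a stem cell passes through the two-cell-like state. In that state the genes of the 2-cell embryo come on together: the transcription factor Dux activates them, Dppa2 and Dppa4 act upstream of Dux, and repressors of retroviral elements, such as Trim28 and Setdb1, hold them down. Zfp352 encodes a zinc finger protein and Tdpoz4 a protein with TRAF and POZ domains, both transcribed early in the embryo.

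The levels below are fragments per kilobase of transcript scaled to library size (FPKM), all divided by a common constant. The deposited confidence limits of each value imply how many sequenced fragments it rests on, and this number came out whole to within 0.01 for 56 of 56 values. The libraries held 1.55e+07 to 1.67e+07 implied fragments each. The paper, however, lists several times more RNA-seq reads for S8 and T2 than for the other lines, with a lower share mapped uniquely. Why the implied fragments do not show this difference is not explained. All 11 pluripotent stem cell markers with an entry, among them Pou5f1, Sox2 and Nanog, were at or above 1 FPKM in every library. Markers of the feeder fibroblasts were present too and differed in level between the lines: the summed FPKM of 20 markers was 1686 and 1738 in R1, 4623 and 4626 in 16-6, 505 and 506 in 32, 875 in S8 and 1339.8 in T2, and no marker was at 0 in any library. Line 16-6 thus had the highest summed level of these markers and line 32 the lowest. Their part in the results below was not tested. In bulk RNA, fewer two-cell-like cells and less RNA in each such cell cannot be told apart.

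The Zscan4 genes lie side by side on chromosome 7 and are near copies of each other, which matters here because the study's methods state that only reads aligned to a single place were kept. In the mm9 build, the tables place Zscan4b at chr7:11486089-11490399, Zscan4c at chr7:11591094-11595896, Zscan4d at chr7:11746992-11751497, Zscan4e at chr7:11891727-11896031 and Zscan4f at chr7:11983264-11987667. Each has 4 exons in the annotation, with a coding sequence of 1515 bases in Zscan4b and Zscan4e and of 1518 bases in the others. Of 1515 coding columns aligned in all 5 copies, 62 differed between copies. The copies fell into close pairs: Zscan4b and Zscan4e differed at 4 of 1515 coding bases (99.7% identity), Zscan4c and Zscan4f at 6 of 1518 (99.6%), and the other pairs were 96.6% to 97.9% identical. Zscan4d stood apart from the other 4 at 23 columns, and Zscan4b with Zscan4e stood apart from the other 3 at 21.

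The stretch below shows how little separates the copies. It covers coding bases 625 to 724, the 100-base stretch with the most variable columns (11) among those with the most distinct sequences (4). Capitals mark bases that differ from Zscan4c, and each sequence is read 5′ to 3′ along the coding strand. The mm9 positions are chr7:11486940-11487039 (minus strand) for Zscan4b, chr7:11594449-11594548 (plus) for Zscan4c, chr7:11748067-11748166 (minus) for Zscan4d, chr7:11892569-11892668 (minus) for Zscan4e and chr7:11986642-11986741 (plus) for Zscan4f.
Zscan4b: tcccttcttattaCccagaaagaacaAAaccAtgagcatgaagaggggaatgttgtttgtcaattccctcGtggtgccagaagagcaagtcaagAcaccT
Zscan4c: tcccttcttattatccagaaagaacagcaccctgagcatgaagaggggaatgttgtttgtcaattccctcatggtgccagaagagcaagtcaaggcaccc
Zscan4d: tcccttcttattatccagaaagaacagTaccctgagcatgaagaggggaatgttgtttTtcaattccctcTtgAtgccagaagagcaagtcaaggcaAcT
Zscan4e: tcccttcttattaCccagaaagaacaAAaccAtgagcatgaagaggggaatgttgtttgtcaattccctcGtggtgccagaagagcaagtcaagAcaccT
Zscan4f: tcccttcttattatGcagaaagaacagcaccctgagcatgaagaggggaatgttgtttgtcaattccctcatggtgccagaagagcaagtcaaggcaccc
Zscan4b and Zscan4e were identical over this stretch and carried 7 differences from Zscan4c. Zscan4d carried 6, and Zscan4f only 1.

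The share of exon sequence that could be placed uniquely differed widely between the members. Among exon windows of 50 bases, 91.0% in Zfp352 and 58.8% in Tdpoz4 occurred once in the mm9 genome. In the Zscan4 copies the share was 50.5% for Zscan4d, 15.4% for Zscan4c, 7.23% for Zscan4b, 7.17% for Zscan4e and 3.06% for Zscan4f. With windows of 200 bases it rose to 93.3% for Zscan4d and 55.6% for Zscan4c, but only to 30.6% for Zscan4b, 18.1% for Zscan4e and 8.75% for Zscan4f. The implied fragments did not follow these shares: over the 8 libraries together, Zscan4f had 235 fragments, Zscan4d 223, Zscan4c 292, Zscan4e 206 and Zscan4b 74. It could not be settled from the tables whether reads shared by several copies had been left out or had been assigned to single copies, so that the value of a copy may include fragments of another. Levels are therefore compared below between lines for the same gene, and the order of the copies within a line is not read as an order of transcription. Whether the lines carry the reference sequence at these copies was not examined.

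**Figure D1:**
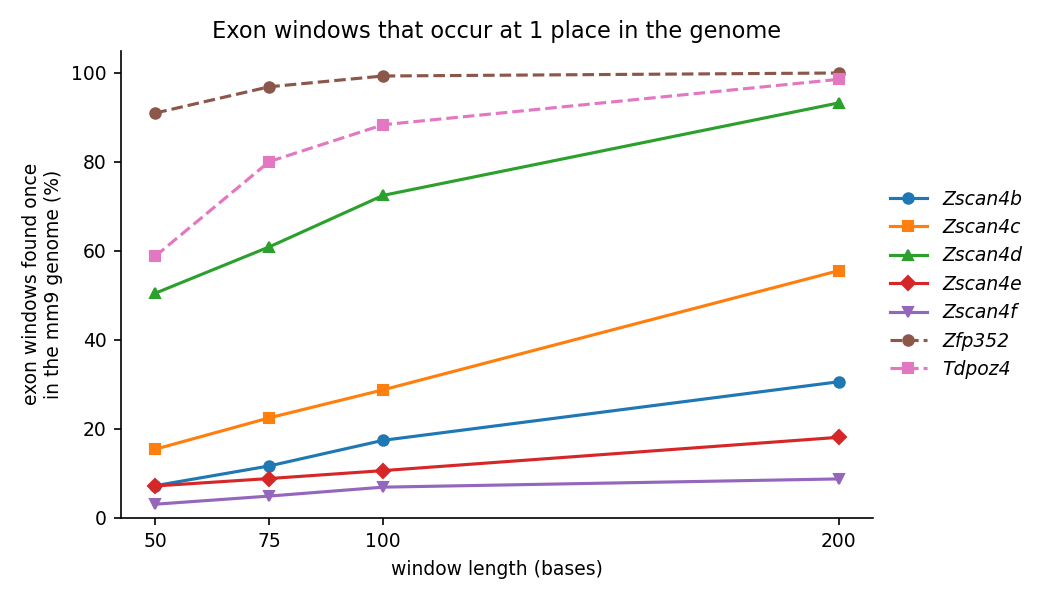
Percentage of exon windows (vertical axis) of 50, 75, 100 and 200 bases (horizontal axis) that occur at 1 place in the mm9 genome, with a line for each of the 7 members. Zfp352 is at 91.0% or more throughout, whereas Zscan4f stays at 8.75% or less.

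The promoters of the copies were also closely alike. RefSeq promoter windows (GRCm38.p6, from 250 bases before to 50 bases after the annotated start) matched 6 of the 9 members, namely Zscan4b, Zscan4c, Zscan4d, Zscan4f, Zfp352 and Tdpoz4. The letters TATAAA, the TATA box, were found once in each of the 4 Zscan4 windows and in neither of the other two. They occur on one strand or the other in 13.6% of all 32851 windows. TATAAA began 31 bases before the annotated start in Zscan4b and Zscan4f, 54 in Zscan4c and 65 in Zscan4d. The stretches below run from 100 bases before TATAAA, in capitals, and end before the annotated start. They lie in GRCm38.p6 at chr7:10905052-10905181 (minus strand) for Zscan4b, chr7:11005591-11005720 (plus) for Zscan4c, chr7:11166184-11166313 (minus) for Zscan4d and chr7:11397784-11397913 (plus) for Zscan4f.
Zscan4b: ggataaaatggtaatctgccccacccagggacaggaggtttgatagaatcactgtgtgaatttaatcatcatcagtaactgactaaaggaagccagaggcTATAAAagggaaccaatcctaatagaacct
Zscan4c: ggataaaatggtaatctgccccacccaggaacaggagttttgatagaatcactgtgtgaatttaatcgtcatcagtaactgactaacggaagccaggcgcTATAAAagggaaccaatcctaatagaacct
Zscan4d: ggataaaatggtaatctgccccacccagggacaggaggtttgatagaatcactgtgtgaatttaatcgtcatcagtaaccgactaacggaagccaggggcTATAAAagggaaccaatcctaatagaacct
Zscan4f: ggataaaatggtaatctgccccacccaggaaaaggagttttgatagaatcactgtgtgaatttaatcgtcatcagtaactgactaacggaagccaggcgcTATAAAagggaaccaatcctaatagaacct
Over these 130 bases the copies differed from each other at 1 to 7 positions, the fewest between Zscan4c and Zscan4f. The letters GATTNAATC, a core of the sequence that Dux binds, were found on neither strand of the 6 windows (0.268% of all windows hold them), and neither was the octamer ATGCAAAT that POU factors such as Oct4 bind (1.74% of all windows). The letters of these 2 motifs do not include TATAAA.

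The Zscan4 genes were highest in R1 and lowest in 16-6. The summed FPKM of the 5 copies was 11 and 11.5 in the R1 libraries, 0.687 and 0.597 in 16-6, 2.63 and 2.90 in 32, 6.45 in S8 and 3.16 in T2. Relative to the R1 mean, this is 5.71% in 16-6, 24.6% in 32, 57.3% in S8 and 28.1% in T2. The sums rest on 293 and 318 fragments in R1 and on only 19 and 16 in 16-6. For all 5 copies both R1 libraries lay above all 6 iPSC libraries, an ordering seen in 16.8% of all entries tested, and both 16-6 libraries lay below every other library (15% of all entries tested). For Zscan4b and Zscan4e, which passed the filter through R1 only, the R1 ordering was largely built into their entry. The order of the line means was R1, S8, T2, 32 and 16-6 for Zscan4b, Zscan4c, Zscan4d and Zscan4f. In Zscan4e, line 32 stood second, ahead of S8 and T2.

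**Figure D2:**
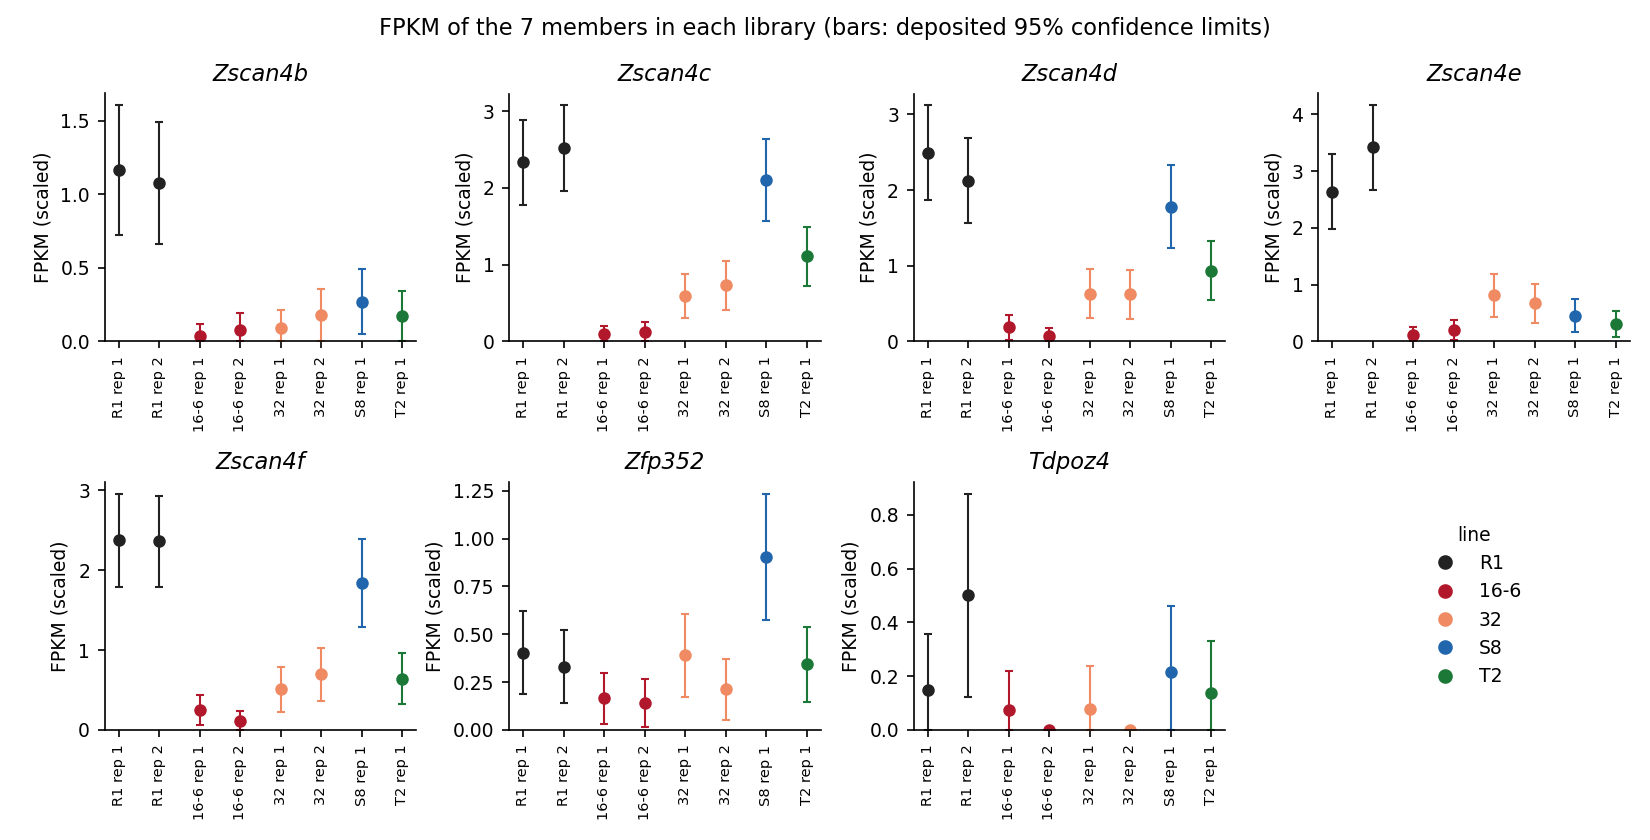
FPKM (vertical axes, scaled by a common constant, each panel from 0) of the 7 members in the 8 libraries (horizontal axes), colored by line, with the deposited 95% confidence limits as bars. For the 5 Zscan4 genes the R1 libraries are highest and the 16-6 libraries lowest, and for Zfp352 the S8 library is highest.

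Zscan4c, of the 5 member copies the one with the most fragments, was at 2.33 and 2.52 FPKM in R1, 0.0947 and 0.128 in 16-6, 0.594 and 0.732 in 32, 2.10 in S8 and 1.11 in T2. R1 and S8 were high with overlapping confidence limits (1.78 to 2.88 and 1.96 to 3.08 in R1, 1.57 to 2.64 in S8), T2 was intermediate, and 16-6 was close to 0. Zscan4d was at 2.49 and 2.12 FPKM in R1, 0.186 and 0.0760 in 16-6, 0.629 and 0.625 in 32, 1.78 in S8 and 0.932 in T2. The same order held, and the replicates of 32 differed by far less than the lines did. Zscan4f was at 2.37 and 2.36 FPKM in R1, 0.246 and 0.107 in 16-6, 0.507 and 0.697 in 32, 1.84 in S8 and 0.640 in T2. Here T2 lay between the 2 libraries of line 32.

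Zscan4e was at 2.64 and 3.42 FPKM in R1, 0.120 and 0.204 in 16-6, 0.811 and 0.670 in 32, 0.456 in S8 and 0.307 in T2. S8 was low for this copy, below both libraries of 32. Zscan4b was at 1.17 and 1.08 FPKM in R1, 0.0398 and 0.0811 in 16-6, 0.0896 and 0.178 in 32, 0.270 in S8 and 0.173 in T2. Its iPSC values rest on 1 to 6 fragments each, so that their order among the iPSC lines was not resolved at this depth.

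Zfp352, at chr4:89885511-89892378, was highest in S8 and, like the Zscan4 genes, lowest in 16-6. It was at 0.404 and 0.330 FPKM in R1, 0.165 and 0.140 in 16-6, 0.391 and 0.213 in 32, 0.905 in S8 and 0.342 in T2. S8 was the highest library, 2.47 times R1 (95% interval 1.41 to 4.35), and 16-6 the lowest line, at 0.417 times R1 (0.186 to 0.873). The intervals of 32 (0.437 to 1.54) and T2 (0.430 to 1.92) against R1 included 1. These are exact Poisson intervals that cover counting error only. Tdpoz4, a single-exon gene at chr3:93600320-93601432, was at 0.148 and 0.50 FPKM in R1, 0.0730 and 0 in 16-6, 0.0797 and 0 in 32, 0.214 in S8 and 0.136 in T2. The highest value rests on 7 fragments and a count of 0 allows up to 3, so differences between the lines were not detectable at this depth, other than that R1 summed to 9 fragments against 1 in each of 16-6 and 32. Entered without the filter, neither gene was called against R1 in any line (Zfp352 in S8 differed by 0.48, limma adjusted p = 0.0306, under 2-fold). With a pseudocount of 0.1 and no filter, Zfp352 was called lower in 16-6 than in S8 (-1.99, limma adjusted p = 0.0190).

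Against R1, line 16-6 had lower levels of every Zscan4 gene tested. All 5 passed the test (limma on log2(FPKM + 1), Benjamini-Hochberg adjusted p below 0.05 and at least 2-fold), where 3.53% of all entries were called lower and 7.11% in either direction. For Zscan4b and Zscan4e the difference was built in as above. The R1 mean was 2.43 ± 0.129 FPKM for Zscan4c and 3.03 ± 0.550 for Zscan4e, against 0.112 ± 0.0239 and 0.162 ± 0.0594 in 16-6 (SD, n = 2). On the log2(FPKM + 1) scale, which understates the change of genes at this level, Zscan4e differed by -1.79 (SE 0.121, limma adjusted p = 0.000415), Zscan4c by -1.62 (SE 0.0809, adjusted p = 0.000206), Zscan4d by -1.55 (SE 0.0948, adjusted p = 0.000332), Zscan4f by -1.52 (SE 0.101, adjusted p = 0.000391) and Zscan4b by -1.0 (SE 0.0834, adjusted p = 0.000704). As ratios of FPKM, R1 exceeded 16-6 by 21.8 times for Zscan4c (95% counting interval 10.3 to 55.1), 18.8 for Zscan4e (9.29 to 44.3), 17.5 for Zscan4d (8.24 to 44.4) and 13.3 for Zscan4f (7.04 to 28.5). For Zscan4b the ratio was 18.6 (6.04 to 93.0), from 55 fragments against 3. Zscan4c, Zscan4d and Zscan4f also reached 1 FPKM in an iPSC library, unlike Zscan4b and Zscan4e. Zscan4b was at the edge of the 2-fold limit and fell short of it without R1 replicate 1 or without 16-6 replicate 1 (-0.97 in both) and under quantile normalization (-0.82). The summed feeder markers were higher in 16-6 than in R1, but not every marker was. Of the 20 markers, 11 were called higher in 16-6 and 2 lower (Dcn and Lum), beside 7.11% of all entries called in either direction.

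Against R1, line 32 had lower Zscan4c, Zscan4d, Zscan4e and Zscan4f. These 4 genes, Zscan4e with its difference built in as above, passed the test (8.23% of all entries were called lower, 9.77% in either direction), with log2 differences of -1.04 (SE 0.0809, limma adjusted p = 0.000464) for Zscan4c, -1.02 (SE 0.0948, adjusted p = 0.000775) for Zscan4d, -1.21 (SE 0.121, adjusted p = 0.000991) for Zscan4e and -1.07 (SE 0.101, adjusted p = 0.000807) for Zscan4f. Zscan4b differed by -0.91 (SE 0.0834, adjusted p = 0.000761), short of the 2-fold limit. As ratios, R1 exceeded 32 by 3.66 times for Zscan4c (2.55 to 5.37), 3.67 for Zscan4d (2.45 to 5.68), 4.10 for Zscan4e (2.80 to 6.18), 3.93 for Zscan4f (2.64 to 6.01) and 8.38 for Zscan4b (3.61 to 23.8). All 4 calls were near the limit: none remained under quantile normalization, without 32 replicate 1 the differences of Zscan4c and Zscan4f were -0.98 and -0.99, and without R1 replicate 1 that of Zscan4d was -0.94. The summed feeder markers were lower in 32 than in R1.

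Line S8 was split between the copies. Zscan4e passed the test against R1, at -1.46 (SE 0.148, limma adjusted p = 0.000799), as 1 of the 5 copies where 9.74% of all entries were called lower and 16.7% in either direction. It had passed the filter through R1 only, so its difference from R1 was built into its entry. Zscan4c differed by -0.14 (SE 0.0991, adjusted p = 0.259), Zscan4d by -0.25 (SE 0.116, adjusted p = 0.111) and Zscan4f by -0.25 (SE 0.124, adjusted p = 0.136). These 3 do not show that the levels were equal: S8 was at 0.867 times R1 for Zscan4c (0.633 to 1.17), 0.771 for Zscan4d (0.529 to 1.10) and 0.778 for Zscan4f (0.540 to 1.10). The closest pair of copies was far lower, with Zscan4e at 0.15 times R1 (0.0705 to 0.284) and Zscan4b at 0.241 (0.0847 to 0.558). Zscan4b, at -0.74 (SE 0.102, adjusted p = 0.00221), did not reach the 2-fold limit on the log2 scale used. Under quantile normalization the small differences of Zscan4c, Zscan4d and Zscan4f changed sign. S8 is a single library, so its spread is assumed to be that of the replicated lines.

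Line T2, also a single library, had lower Zscan4e and Zscan4f than R1. Both, Zscan4e with its difference built in, passed the test, at -1.62 (SE 0.148, limma adjusted p = 0.00100) and -1.04 (SE 0.124, adjusted p = 0.00203), where 6.54% of all entries were called lower and 10.5% in either direction. Zscan4b, Zscan4c and Zscan4d differed by -0.85 (SE 0.102, adjusted p = 0.00204), -0.70 (SE 0.0991, adjusted p = 0.00341) and -0.77 (SE 0.116, adjusted p = 0.00410) and did not reach 2-fold. T2 was at 0.101 times R1 for Zscan4e (0.0399 to 0.213), 0.154 for Zscan4b (0.0407 to 0.418), 0.271 for Zscan4f (0.15 to 0.456), 0.405 for Zscan4d (0.247 to 0.636) and 0.456 for Zscan4c (0.303 to 0.668). As in S8, Zscan4b and Zscan4e were the lowest copies relative to R1. The call of Zscan4f was lost under quantile normalization (-0.84).

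**Figure D3:**
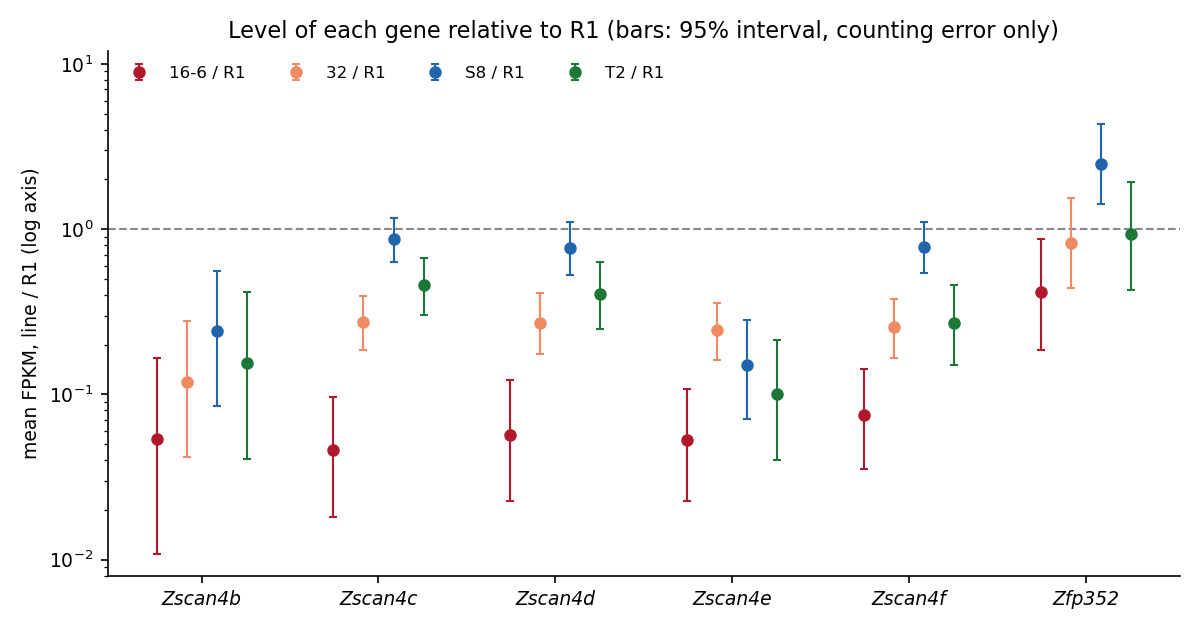
Level of each Zscan4 gene and of Zfp352 in the 4 iPSC lines relative to R1 (vertical axis, log scale, labeled mean FPKM). Points are ratios of FPKM pooled over the libraries of each line, with 95% counting intervals as bars and a dashed line at equality. The S8 intervals of Zscan4c, Zscan4d and Zscan4f include 1, those of Zscan4b and Zscan4e lie below it, and that of Zfp352 lies above it.

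Among the iPSC lines, 16-6 was below S8 for Zscan4c, Zscan4d and Zscan4f. These 3 passed the test with log2 differences of -1.48 (SE 0.0991, limma adjusted p = 0.000239), -1.30 (SE 0.116, adjusted p = 0.000540) and -1.27 (SE 0.124, adjusted p = 0.000687), where 6.9% of all entries were called lower in 16-6 and 17.3% in either direction. Zscan4b and Zscan4e differed by -0.26 and -0.33 (limma adjusted p = 0.0726 and 0.107). No copy passed in the other 4 tested pairs. In 16-6 against 32, where 10.3% of all entries were called, 4 of 5 copies had an unadjusted limma p below 0.05, and all 4 had an adjusted p below 0.05 but less than the 2-fold difference required. Their differences ran from -0.58 to -0.44, while the FPKM of 32 exceeded that of 16-6 by 5.95 times for Zscan4c (2.62 to 15.8), 4.76 for Zscan4d (2.05 to 12.8), 4.58 for Zscan4e (2.07 to 11.5) and 3.40 for Zscan4f (1.62 to 7.77). With a pseudocount of 0.1 in place of 1, these 4 passed. That setting also called more of all entries, for example 1690 against 974 of 13693 in 16-6 against R1. In 16-6 against T2 3 of 5 had an unadjusted limma p below 0.05, in 32 against S8 3 of 5, and in 32 against T2 2 of 5. At a pseudocount of 0.1, 3, 3 and 1 copies passed. At the main setting 8.07%, 11.8% and 7.43% of all entries were called in these pairs. Those shares and the 10.3% above also require an adjusted p and 2-fold, so they are no baseline for the unadjusted counts. The share of all entries with an unadjusted p below 0.05 was not computed. Without a fold minimum, 7610 of 13693 entries were called in 16-6 against R1. Over all 5 lines, the moderated F test called 5 of 5 copies, against 34.5% of all entries. Zscan4b and Zscan4e are among them, with a difference from R1 built into their entry. S8 and T2, each a single library, were not tested against each other: S8 exceeded T2 by 1.90 times for Zscan4c (1.22 to 2.99), 1.90 for Zscan4d (1.12 to 3.32), 2.87 for Zscan4f (1.59 to 5.46) and 1.48 for Zscan4e (0.510 to 4.60).

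The make-up of the signal of the 5 Zscan4 members in the S8 and T2 libraries was unlike that in R1. Zscan4e supplied 148 of the 611 fragments of the 5 copies in R1, or 24.2% (95% Wilson interval 21.0 to 27.8). Its share was 22.9% in 16-6 (12.1 to 39.0) and 23.9% in 32 (17.6 to 31.7), with intervals that include the share in R1. In S8 it was 6.13% (3.37 to 10.9), from 10 of 163 fragments, and in T2 8.43% (4.15 to 16.4), from 7 of 83. Both intervals lie below those of R1 and 32. The single R1 libraries gave 21.5% and 26.7%, a spread smaller than the gap to S8 and T2. Zscan4c made up the larger part instead, with 37.4% in S8 (30.4 to 45.1) and 39.8% in T2 (29.9 to 50.5) against 25.0% in R1 (21.8 to 28.6). The share of Zscan4b was 9.0% in R1 (6.98 to 11.5) and 3.68% in S8 (1.70 to 7.80). Shares of Zscan4d and Zscan4f had overlapping intervals in all 5 lines. As S8 and T2 have no replicate, these shares describe the libraries, and it could not be settled from the files whether reads that could have come from several copies are in them. S8 and T2 are also the libraries with more listed reads and a lower uniquely mapped share. The part of this in the shares was not tested.

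**Figure D4:**
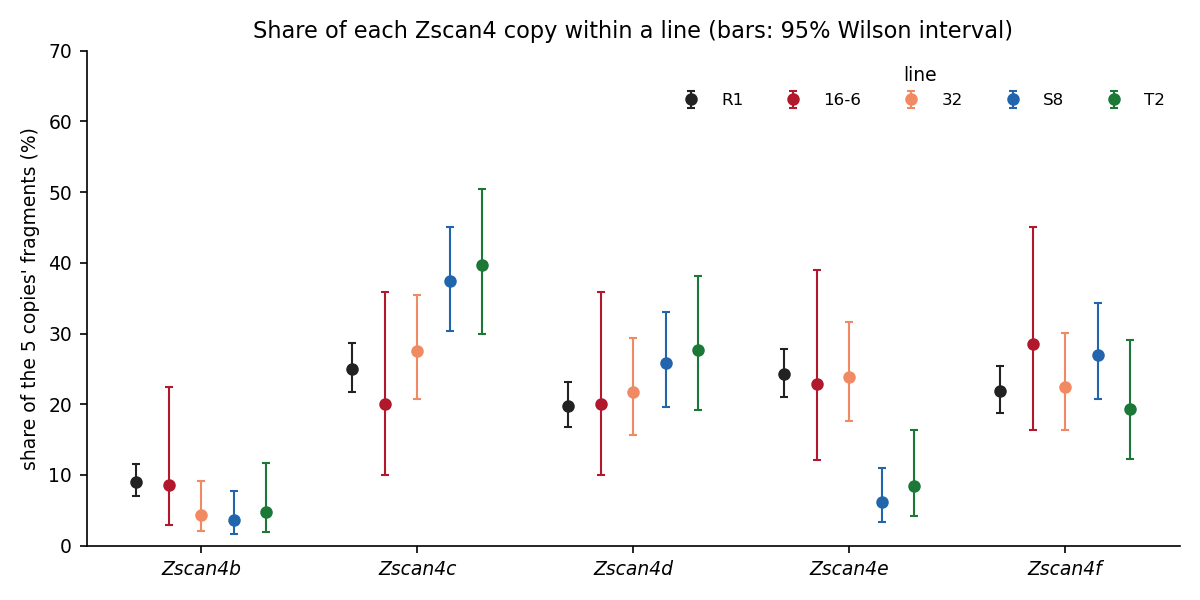
Share of each Zscan4 copy in the fragments of all 5 copies (vertical axis, percent) in the 5 lines, replicates summed, with 95% Wilson intervals as bars. Zscan4e is at 22.9% to 24.2% in R1, 16-6 and 32 and at 6.13% and 8.43% in S8 and T2.

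Some other genes of the 2-cell embryo were also called lower than R1 in the iPSC lines. Of 65 such genes listed, 49 had an entry and 15 were tested. Of the 15, 5 (Arg2, Dub1a, Gm5039, Gm5662 and Sp110) reached 1 FPKM in the R1 libraries only, so that a difference from R1 was built into their entry. Of the other 10, 5 were called lower than R1 in 16-6, 5 in 32, 3 in S8 and 5 in T2, and none was called higher, where 3.53%, 8.23%, 9.74% and 6.54% of all entries were called lower. These counts include Zscan4a, itself a Zscan4 copy, in all 4 lines. They also include Cyp1b1, which had another order of lines, in 32, S8 and T2. The 3 in S8 were Zscan4a, Cyp1b1 and Gm12794. Pramel6 lay above R1 in all 4 lines without passing the test (log2 differences of 0.14 in 16-6, 0.79 in 32, 0.46 in S8 and 0.28 in T2). The sixth copy with an entry, Zscan4a, was at 4.04 and 4.07 FPKM in R1, 0.393 and 0.145 in 16-6, 0.838 and 0.798 in 32, 1.25 in S8 and 0.891 in T2, and passed against R1 in all 4 lines. With 337 fragments over all libraries it had more than any member copy, and it is not in the sums and shares above. Its share of unique exon windows was not computed. Gm12794 was at 4.33 and 4.64 FPKM in R1, 0.225 and 0.302 in 16-6, 1.10 and 1.03 in 32, 0.781 in S8 and 1.07 in T2, with the same outcome. Gm5039, at 3.68 and 3.71 FPKM in R1 and 0.0987 to 0.940 in the iPSC libraries, is one of the 5 that passed the filter through R1 only. All 3 were lower in S8 than in both R1 libraries.

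Gm8994 and Gm2022 passed the filter in iPSC libraries as well. Gm8994 was at 3.65 and 4.41 FPKM in R1, 0.402 and 0.266 in 16-6, 1.02 and 1.10 in 32, 3.55 in S8 and 1.04 in T2. Its S8 level was near R1, at a log2 difference of -0.14 (limma adjusted p = 0.376), and it passed as lower in the other 3 lines. Gm2022 was at 3.39 and 3.67 FPKM in R1, 0.247 and 0.167 in 16-6, 1.37 and 1.25 in 32, 1.68 in S8 and 0.755 in T2, and passed as lower in 16-6 and T2. Cyp1b1, a cytochrome P450 that fibroblasts also transcribe, had the widest range of the list but another order, at 19.1 and 22.6 FPKM in R1, 37.9 and 38.3 in 16-6, 1.35 and 1.47 in 32, 3.71 in S8 and 6.46 in T2. It was highest in 16-6 and lowest in 32, the order of the summed feeder markers at both ends.

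**Figure D5:**
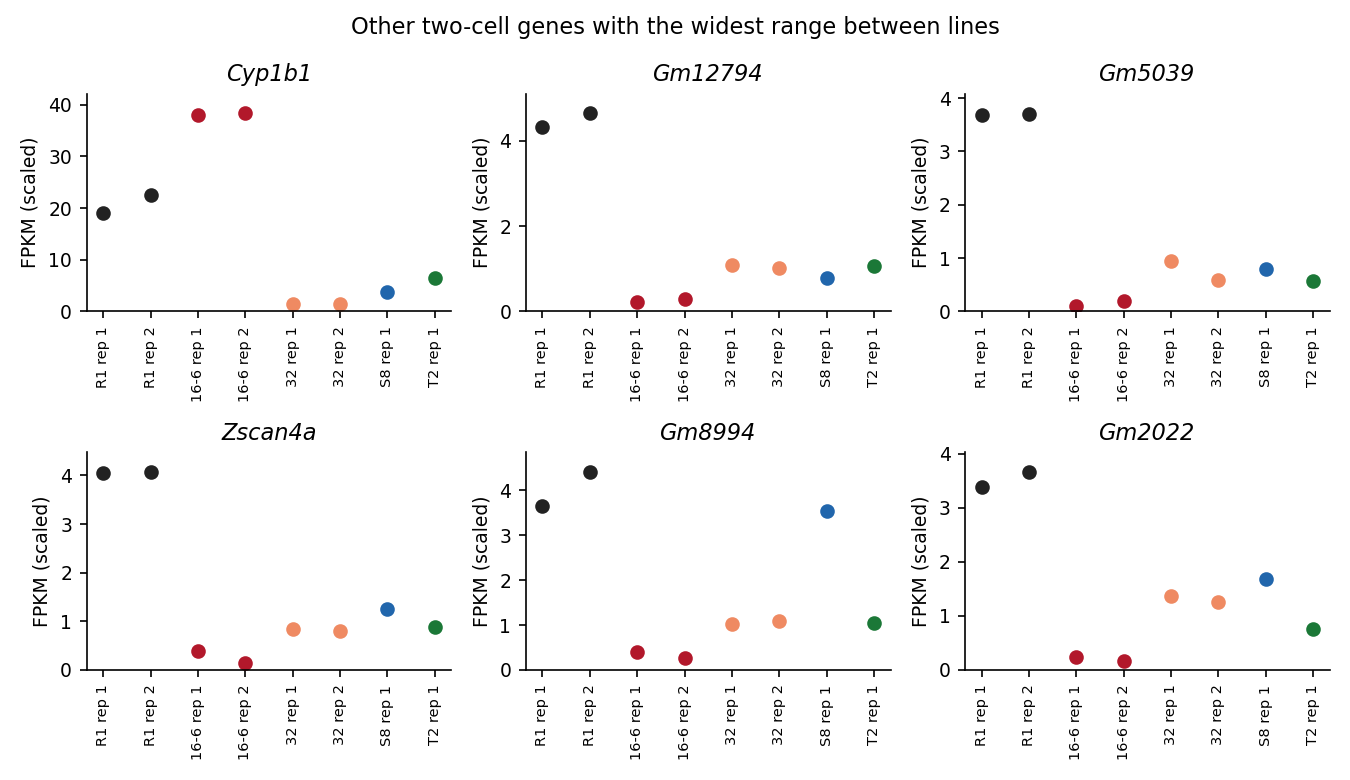
FPKM (vertical axes, scaled, each panel from 0) in the 8 libraries (horizontal axes) of the 6 other 2-cell genes with the widest range of line means among those past the F test, colored by line as in the plot of the members. In 5 of the 6 the R1 libraries are highest and the 16-6 libraries lowest, and Cyp1b1 is highest in 16-6.

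Genes listed as activators or other regulators of the two-cell-like state had other orders of lines. Dux itself was barely detected, at 0.272 and 0.288 FPKM in R1, 0 and 0.115 in 16-6, 0.171 and 0 in 32, 0 in S8 and 0.036 in T2, below the filter. Of 7 tested genes of this list, 1 was called lower in 16-6 than in R1 (7.11% of all entries called in either direction). In 32, 1 was called higher (9.77%), and 3 were called lower in S8 (16.7%) and 3 in T2 (10.5%). In both S8 and T2 the genes called were Tbx3, Tet1 and Tet2. How Tet1 and Tet2 act on this state was not examined, so these calls do not count as calls of activators. Dppa2 was at 68.1 and 71.6 FPKM in R1, 47.6 and 47.0 in 16-6, 77.2 and 84.0 in 32, 110.3 in S8 and 64.2 in T2, so that it was lowest in 16-6 but not lower than R1 in 32 or S8. Dppa4, its partner, was at 136 and 143 FPKM in R1, 82.1 and 77.6 in 16-6, 124 and 131 in 32, 138 in S8 and 85.5 in T2, and was not called in any comparison with R1. Tbx3, a T-box factor linked to Zscan4 activation, was at 42.5 and 39.6 FPKM in R1, 17.6 and 18.3 in 16-6, 46.3 and 46.6 in 32, 9.50 in S8 and 6.51 in T2. It was called lower in 16-6, S8 and T2, and in 32 it differed from R1 by 0.18 on the log2 scale. Dppa3, a maternal factor of the early embryo, was called higher in 32 than in R1 (log2 difference 2.16), and the DNA demethylation enzymes Tet1 and Tet2 were called lower in S8 (-2.0 and -2.08) and in T2 (-1.13 and -1.40).

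Of 30 tested repressors of 2-cell genes and of retroviral elements, 1 was called lower than R1 in 16-6 (7.11% of all entries called in either direction) and 1 in 32 (9.77%), and none higher, while 5 were called higher and 3 lower in S8 (16.7%), and 4 higher and 1 lower in T2 (10.5%). The 1 gene in 16-6 and 32 was Zfp42 (Rex1), a zinc finger protein of pluripotent cells that binds retroviral elements. It was at 541 and 544 FPKM in R1, 141 and 144 in 16-6, 258 and 277 in 32, 119 in S8 and 92.9 in T2, and was called lower in all 4 lines. Dnmt3b, a de novo DNA methyltransferase, was at 137 and 156 FPKM in R1, 222 and 220.2 in 16-6, 176 and 179 in 32, 502 in S8 and 490.4 in T2, and it was called higher in S8 and T2. Dnmt3a showed the same 2 calls, at log2 differences of 1.46 and 1.08. Trim28, Kdm1a, Chaf1a and Setdb1 were called in no line against R1, with Trim28 in S8 just under the limit at 0.95. Rif1, which restrains 2-cell genes and also binds telomeres, was called lower in S8 only among the comparisons with R1 (-1.41), at 60.5 FPKM against 165 and 160 in R1.

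Zscan4 acts in telomere maintenance and recombination. Of 18 tested genes of these processes, 1 was called lower than R1 in 16-6 and 1 in 32, none in T2, and 4 higher and 2 lower in S8, beside 7.11%, 9.77%, 10.5% and 16.7% of all entries called in 16-6, 32, T2 and S8. The gene called in 16-6 and 32 was Smc1b, the meiotic cohesin subunit, at 3.59 and 3.30 FPKM in R1, 0.640 and 0.781 in 16-6, 1.06 and 1.20 in 32, 4.01 in S8 and 2.59 in T2. In T2, where no gene of the list passed, its difference from R1 was -0.31. Wider ranges of line means belonged to Atrx, Terc and Rif1. Against R1 in S8, Terc (1.88) and Daxx (1.12) were among the genes called higher, and Atrx (-1.43) and Rif1 (-1.41) were those called lower. The pluripotency genes were lower in 16-6 too: all 11 had lower values there than in R1, with a median log2 difference of -0.71 (-0.026 over all entries). Of them 1 was called (Esrrb, 184 and 175 FPKM in R1, 86.4 and 87.1 in 16-6), beside 7.11% of all entries called in either direction. Their summed FPKM was 3049.8 and 3122 in R1, 2149.6 and 2160.2 in 16-6, 3249 and 3373 in 32, 4002 in S8 and 2820.0 in T2. In 32 and S8 this sum lay above R1, unlike the summed Zscan4 level. Against R1 none was called in 32 (9.77% of all entries called in either direction), 3 lower and 1 higher in S8 (16.7%) and 3 lower in T2 (10.5%). Their part in the Zscan4 differences was not tested.

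The 10 genes whose levels most resembled the summed Zscan4 level over the 8 libraries were Lrch1, Atp1b2, Smtnl2, Fanci, Cyp2s1, Usp28, Neil3, Otx2, Rad51c and Fbxo2, with Pearson r from 0.990 to 0.978 on the log2(FPKM + 1) scale. They were selected from 4966 genes by this measure, so the values are a description, and the 8 points share 5 lines. None of the 10 was in the list of other 2-cell genes. Lrch1 was at 7.02 and 6.62 FPKM in R1, 2.66 and 2.41 in 16-6, 4.02 and 4.07 in 32, 4.84 in S8 and 4.16 in T2. Otx2, a homeobox factor of the early epiblast, was at 62.1 and 65.3 FPKM in R1, 20.7 and 20.1 in 16-6, 34.5 and 37.1 in 32, 50.1 in S8 and 45.0 in T2. Both show the order R1, S8, T2, 32 and 16-6 seen in 4 of the 5 Zscan4 copies.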

How the data were processed

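RNA-seq libraries of R1 (n = 2), 16-6 (n = 2), 32 (n = 2), S8 (n = 1) and T2 (n = 1) were analysed. Per the paper's methods, the authors aligned reads with TopHat to the UCSC genes of mm9, kept unique alignments and estimated levels with Cufflinks. The submitters' processing notes name TopHat2 2.0.4 and Cufflinks 2.0.0, and the Cufflinks options, the RNA read length and the strandedness of the counting are not given in the sources used here. The deposited values are FPKM with confidence limits, 1 table per library. Their sums were 1.14e+10 to 1.60e+10 per library, so all values were divided by 12725.7, which sets the median sum to 1e+06 and leaves ratios between libraries unchanged. Because the deposited scale is unexplained, an FPKM printed here is comparable between libraries and genes of this series only. Implied fragments were computed as the squared quotient of 2 FPKM and the upper limit minus the FPKM.

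Entries with at least 1 FPKM in at least 1 library were fitted on log2(FPKM + 1) with limma 3.58.1 in R 4.3.3, with 5 lines as groups, 3 residual degrees of freedom and an intensity trend. Called means a Benjamini-Hochberg adjusted p below 0.05 over all 13693 entries and at least 2-fold. The replicates are described as biological, but each line is 1 line, so p-values measure the spread between cultures of it. Replicate variance over counting variance was 1.34 for R1, 1.08 for 16-6 and 1.29 for 32. On simulated data with normal noise based on 13693 entries for 16-6 against R1, 100% of 200 changed entries were recovered at log2 changes of 1.5 and 3, with 0 false calls. The simulation held no changes near the 2-fold limit and no counting error at few fragments, so it does not bear on such calls. Ratios between lines pool the implied fragments of the libraries of a line, so they can differ slightly from ratios of mean FPKM. Ratio intervals are exact conditional Poisson and share intervals Wilson, both 95% and for counting error only.

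The members and lists were chosen with earlier results of these data known. All members were named. From each other list up to 6 genes with the widest range of line means among those past the F test could be named, plus a fixed set of regulators (Dux, Duxbl, Dppa2, Dppa3, Dppa4, Zfp42, Trim28, Kdm1a, Chaf1a, Setdb1, Rif1, Tbx3), then the 10 genes most correlated with the summed Zscan4 level. Of the feeder fibroblast list, all 20 genes passed the filter. All 20 were called higher in 16-6 than in 32, where 10.3% of all entries were called in either direction. Duxbl was below 0.2 FPKM in every library. Exon windows were matched on both strands of the NCBIM37 (mm9) genome with its GENCODE annotation, and coding sequences were aligned with MAFFT. RefSeq promoter windows are of another build (GRCm38.p6), and no coordinate was carried between builds.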

Additional observations from a re-analysis of the deposited data

How the results depend on the processing

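Under the alternatives, 116 of 136 counts of called members stayed within 1.5 times the count given. Among them were all counts with no filter, with a filter of 1 FPKM in 2 libraries and without the intensity trend. Settings with no filter also tested Zfp352 and Tdpoz4. The number of all entries called changed as well. In 16-6 against R1 it was 974 of 13693 as given, 1690 at a pseudocount of 0.1 and 7610 without a fold minimum. In 32 against R1 the numbers were 1338, 2258 and 8428, and 1147 under quantile normalization. The member counts below are not read as a result apart from these shares. A pseudocount of 0.1 gave 2 called genes in S8 against R1, 5 in T2 against R1, 4 in 16-6 against 32, 5 in 16-6 against S8, 3 in 16-6 against T2, 3 in 32 against S8 and 1 in 32 against T2. Without a fold minimum the counts were 2 for S8 and 5 for T2 against R1, 4 for 16-6 against 32, 3 for 16-6 against T2, 3 for 32 against S8 and 1 for 32 against T2. A pseudocount of 0.1 with no filter, an alternative chosen after seeing the data that tests all 7 members, gave 2 for S8 against R1, 3 for 16-6 against 32, 2 for 16-6 against T2 and 1 for 32 against S8. Quantile normalization gave 0 for 32 against R1 and 1 for T2 against R1, and turned the S8 against R1 differences of Zscan4c, Zscan4d and Zscan4f to 0.14, 0.029 and 0.033. It shifted the median of all entries by 0.015 to 0.076 on the log2 scale, and the cause of the lost calls was not tested. Leaving out 1 replicate at a time gave 2 to 4 for 32 against R1, the lowest without 32 replicate 1, and 4 to 5 for 16-6 against R1, the lower without R1 replicate 1 and without 16-6 replicate 1. The replicate numbers did not pair the samples: deviations of same-numbered libraries correlated at -0.097 (R1 and 16-6), 0.00102 (R1 and 32) and 0.028 (16-6 and 32). With the replicate number as a block in the 6 libraries of R1, 16-6 and 32, the counts were 5 for 16-6 against R1, 4 for 32 against R1 and 0 for 16-6 against 32, the same as without it. Depth limits Tdpoz4, the 16-6 values of all members and the iPSC values of Zscan4b most, each of which rests on 7 fragments or fewer.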
